A study of Mus musculus with 32 samples.

Results

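The 34 genes described here are NF-kappaB subunits, their inhibitors and feedback regulators, adaptors of the CD40 receptor, and surface and secreted proteins that CD40 signalling is known to induce in B cells. They were chosen by name from the pathway, with earlier results of these data known. All 34 were found among the 53465 genes of the deposited table. Expression was measured by RNA sequencing of 500 sorted spleen cells per library, in 32 libraries that form 8 groups of 4. The mice were C57BL/6, aged 12 weeks, and had been given NP-CGG in alum, an antigen to which B cells respond with T cell help, 14 days earlier. All carried AID-cre, a cre recombinase under the control of the gene for the activation-induced deaminase, which B cells use once activated. The aPIK3CD groups (genotype AID-cre aPIK3CD) carry activated PIK3CD, the catalytic delta subunit of the leukocyte phosphoinositide 3-kinase, and the WT groups (AID-cre WT) do not. Plasma cells, light zone and dark zone germinal centre B cells and naive B cells were sorted from each genotype, and the series asks how activated PIK3CD signalling changes each population. The labels do not say whether naive B cells, which have little use of AID, carry the activated form, nor whether replicates came from separate mice, so p-values measure the spread between these libraries only.

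NF-kappaB factors wait in the cytoplasm bound to inhibitors of the IkappaB family. CD40 on B cells, engaged by CD40 ligand of helper T cells, frees them by a canonical route, in which the inhibitors are destroyed, and by a non-canonical route, in which the kinase NIK drives processing of the Nfkb2 product. The factors then induce genes for their own inhibitors, so the level of Nfkbia and related genes is often read alongside the activity of the pathway. In the germinal centre, B cells divide in the dark zone and meet antigen and helper T cells in the light zone.

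Levels are given in CPM, counts scaled to a common library size. Total counts were between 473149 and 2820830 in 31 libraries. WT dark zone replicate 3 had 25797 and stands apart, since 1 count there is worth 34 CPM and a gene at 0 may be present. Group means of WT dark zone cells are therefore given over the 3 deeper libraries, while tests kept all 4 and were repeated without it. The 4 libraries titled aPIK3CD replicate 1, 1 per population, carry WT in their genotype field. They were grouped by title, and also counted as WT as an alternative. Pik3cd itself, whose count does not tell an activated form from the normal one, ranged over 62.2 to 105, 127 to 192, 152 to 240 and 88.4 to 192 CPM in plasma, light zone, dark zone and naive cells of aPIK3CD mice, and over 107 to 133, 158 to 190, 136 to 209 and 125 to 345 CPM in those of WT mice. Plasma cell and germinal centre markers followed the labels: the 7 plasma cell markers summed to between 13500 and 16500 CPM in plasma cells and at most 2620 CPM in any other library, and the 8 germinal centre markers to at least 1960 CPM in every dark and light zone library and at most 86.9 CPM in naive B cells. Summed zone markers outside the 34 genes told the zones apart in aPIK3CD but not in WT. The 7 light zone markers summed to 948 to 1080 CPM in light zone and 741 to 894 CPM in dark zone libraries of aPIK3CD mice, and to 958 to 1080 and 923 to 1570 CPM in those of WT mice. Single light zone markers went both ways in both genotypes, with the shallow library included in WT. In aPIK3CD, Slamf7 (248 CPM in the light zone, 332 CPM in the dark zone) and Nr4a1 averaged lower in the light zone. Myc, Egr1, Egr2, Gpr183 and Cd52 averaged higher there. In WT, Myc (153 CPM in the light zone, 56.6 CPM in the dark zone), Egr1, Egr2 and Gpr183 averaged higher in the light zone. Slamf7 (275 and 375 CPM), Cd52 and Nr4a1 averaged lower there. The 6 dark zone markers summed to 730 to 973 and 1090 to 1270 CPM in light zone and dark zone libraries of aPIK3CD mice, and to 593 to 940 and 612 to 1280 CPM in those of WT mice, the shallow library included.

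**Figure D1:**
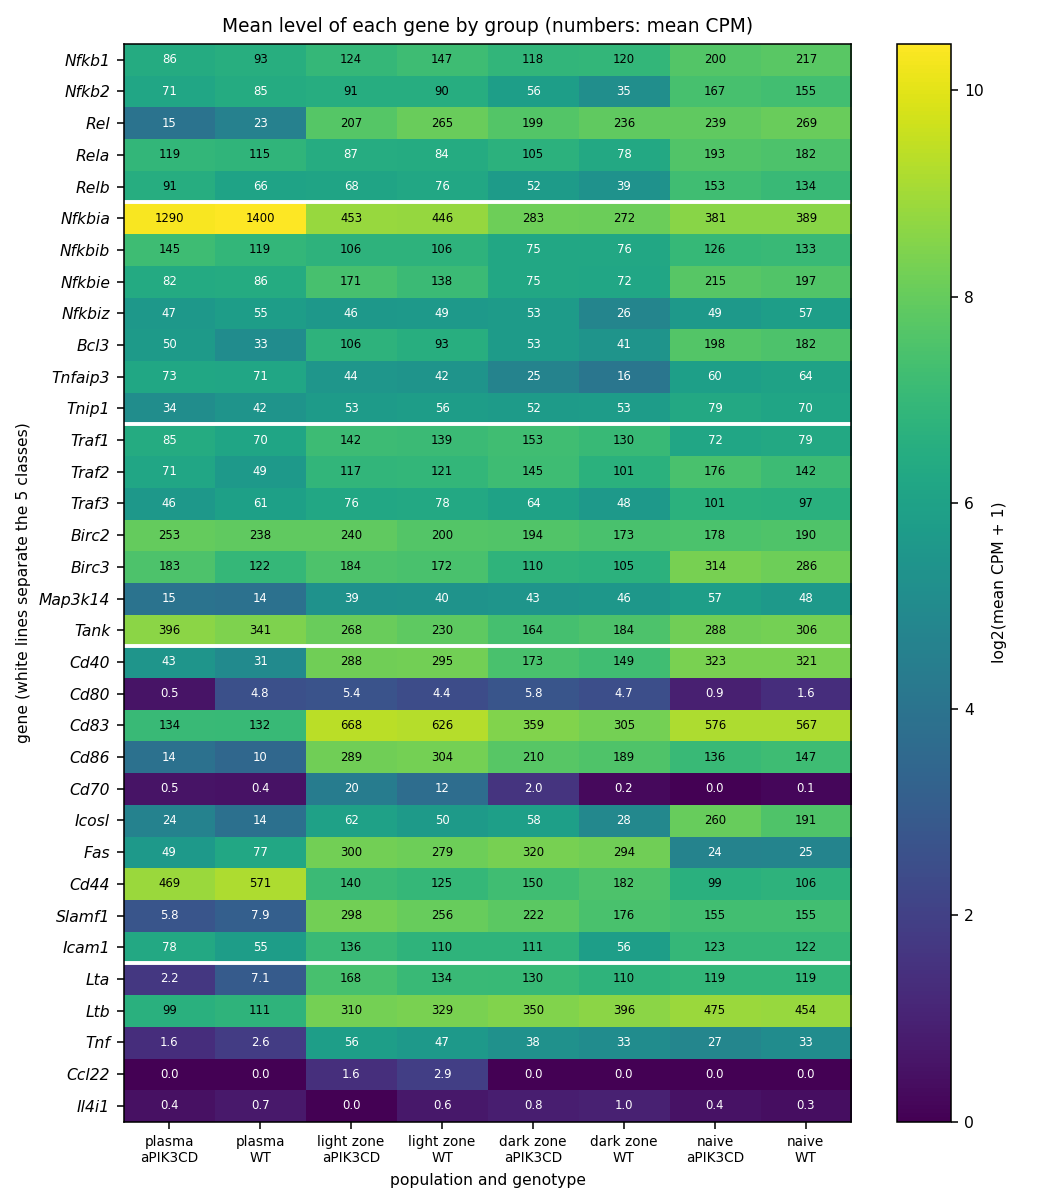
Mean level of the 34 genes (rows) in the 8 groups (columns), with colour on the log2(mean CPM + 1) scale and the mean CPM printed in each cell, over 4 libraries, or 3 deeper ones for WT dark zone. Columns of the same population look alike across the genotypes, whereas rows such as Rel, Nfkbia, Cd40, Cd44 and Slamf1 change sharply between plasma cells and the other populations.

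Between the germinal centre zones, 3 of the 7 inhibitor genes (Nfkbia, Nfkbie and Bcl3), the receptor gene Cd40 and the genes Birc3, Cd83, Cd86 and Cd70 were higher in the light zone in both genotypes. In aPIK3CD mice 9 of the 34 genes rose in the light zone and none fell (edgeR quasi-likelihood test, Benjamini-Hochberg adjusted p below 0.05 over all genes tested, 32 of the 34 tested), where 6.04% of 9798 genes passed in either direction, 3.13% higher and 2.91% lower. In WT mice 9 rose and none fell (31 of the 34 tested), where 2.55% of 9639 genes passed, 1.3% higher and 1.26% lower. Both genotypes called the same 8 genes, Nfkbia, Nfkbie, Bcl3, Birc3, Cd40, Cd83, Cd86 and Cd70, which is 88.9% of each set. The share of calls common to both genotypes was not counted over all genes, here or against naive B cells. It is therefore not read as a trait of the members. Tank was called in aPIK3CD alone and Nfkb2 in WT alone. The counts of both genotypes include Cd83 and Cd86, whose proteins are in common use to sort these zones. These genes are described and not read as findings. At an unadjusted p under 0.05 there was no lower gene in aPIK3CD and 1 in WT, Cd44. Cd44 passed as lower in limma voom and without WT light zone replicate 4. The median log2 fold change of the tested members was 0.34 in aPIK3CD and 0.57 in WT, beside -0.01 and 0.02 over all genes tested. Counts changed with some libraries: the WT count was 5 without WT dark zone replicate 2 and 10 without the shallow library, and the aPIK3CD count was 4 when replicate 1 was counted as WT, with Cd83, Cd70, Nfkbia and Nfkbie.

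Among the inhibitors, Nfkbia encodes IkappaB-alpha, the inhibitor that canonical signalling destroys and NF-kappaB itself restores. In aPIK3CD mice it measured 479, 419, 467 and 447 CPM in light zone libraries, against 289.7, 247, 311 and 287 CPM in dark zone libraries (log2 fold change 0.67 ± 0.10 SE, adjusted p = 0.00119 by edgeR). In WT mice the light zone libraries gave 457, 466, 457 and 404 CPM, against 294, 191, 136 and 330.0 CPM in the dark zone (log2 fold change 0.76 ± 0.17 SE, adjusted p = 0.0157 by edgeR). The zones did not overlap in either genotype, with the shallow library lowest of all. The WT call was lost without dark zone replicate 1 or 2. Nfkbie encodes IkappaB-epsilon, an inhibitor that acts mainly on Rel and Rela. It measured 174, 174, 173 and 166 CPM in light zone and 76.6, 55.6, 60.1 and 108 CPM in dark zone libraries of aPIK3CD mice (log2 fold change 1.18 ± 0.19 SE, adjusted p = 0.00156 by edgeR). WT mice had 120.4, 106, 165 and 160.1 CPM in the light zone and 51.1, 93.6, 136 and 70 CPM in the dark zone (log2 fold change 0.92 ± 0.23 SE, adjusted p = 0.0343 by edgeR). The aPIK3CD zones were fully apart, and among WT libraries the overlap came from the shallow one. The WT call of Nfkbie was lost with the DESeq2 Wald test, when all 8 groups shared 1 fit, and without dark zone replicate 1 or 4 or light zone replicate 3. Bcl3, a nuclear IkappaB-like protein that works with NF-kappaB dimers on DNA, had light zone values of 141, 109, 96.6 and 76.2 CPM and dark zone values of 53.9, 45.8, 49.8 and 61.8 CPM in aPIK3CD mice (log2 fold change 0.99 ± 0.21 SE, adjusted p = 0.00898 by edgeR). The WT values were 96.1, 98.7, 108 and 69.7 CPM in the light zone, against 30.5, 28, 0 and 64.8 CPM in the dark zone (log2 fold change 1.22 ± 0.29 SE, adjusted p = 0.0279 by edgeR). The zones did not overlap in either genotype. The WT call of Bcl3 was lost with the DESeq2 Wald test and when any of 5 of the 8 libraries was left out (dark zone replicates 1 and 2, light zone replicates 1, 2 and 3), and the aPIK3CD call when replicate 1 was counted as WT. Of the other inhibitors, Nfkbib, Tnfaip3, Nfkbiz and Tnip1 did not pass in the main edgeR fit. Tnfaip3, a ubiquitin-editing enzyme that restrains the pathway, had log2 fold changes of 0.83 (adjusted p = 0.101) in aPIK3CD and 1.22 (adjusted p = 0.119) in WT by edgeR. Without the shallow library, in which a few counts put Tnfaip3 at 102 CPM, it passed in WT. With that library kept, it passed in WT in limma voom and with aPIK3CD replicate 1 counted as WT.

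Of the subunit genes, Nfkb2 passed between the zones in the main edgeR fit, in WT. Nfkb2, the precursor of the non-canonical factor, measured 70.5, 106, 82.7 and 101 CPM in WT light zone libraries, against 44.8, 29.5, 0 and 31.8 CPM in WT dark zone libraries (log2 fold change 1.38 ± 0.26 SE, adjusted p = 0.00592 by edgeR). In aPIK3CD mice it had 91.5, 80.8, 87.8 and 105 CPM in the light zone, against 40, 64.6, 47.1 and 73.8 CPM in the dark zone (log2 fold change 0.70 ± 0.22 SE, adjusted p = 0.0716 by edgeR). The zones did not overlap in either genotype. In aPIK3CD it passed with the DESeq2 Wald test, with limma voom, with no filter on low counts and without dark zone replicate 4. The difference between the genotypes in this zone effect had an edgeR adjusted p = 1, so a WT-only effect was not shown. Opposite-strand genes cover 18.1% of the exonic bases of Nfkb2, and the libraries do not mark strand. Relb, the partner of the processed Nfkb2 product, had log2 fold changes of 0.38 in aPIK3CD and 1.03 in WT, with edgeR adjusted p = 0.399 and 0.0557. Rel, Rela and Nfkb1 had log2 fold changes between -0.28 (Rela in aPIK3CD) and 0.36 (Nfkb1 in WT), none past the threshold.

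The proximal regions upstream of Nfkbia, Nfkbie and Nfkb2 are shown as examples of genes that were called in the light zone and hold a match to the decameric kappaB consensus, as Tank also does. Birc3, which was also called in both genotypes and is the gene called between genotypes in plasma cells, is shown as one without a match. The 250 bases before each start are from RefSeq on GRCm38.p6, 5′ to 3′ on the strand of the gene, with consensus matches on either strand in capitals. They lie at chr12:55492648-55492897 (minus strand) for Nfkbia, chr17:45555450-45555699 (plus) for Nfkbie, chr19:46304487-46304736 (plus) for the first of the Nfkb2 starts, and chr9:7873171-7873420 (minus) for Birc3.
Nfkbia: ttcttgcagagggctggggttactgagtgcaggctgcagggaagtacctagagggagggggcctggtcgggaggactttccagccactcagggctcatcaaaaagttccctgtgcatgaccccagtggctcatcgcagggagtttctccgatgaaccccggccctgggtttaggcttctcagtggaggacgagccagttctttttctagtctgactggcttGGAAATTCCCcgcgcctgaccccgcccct
Nfkbie: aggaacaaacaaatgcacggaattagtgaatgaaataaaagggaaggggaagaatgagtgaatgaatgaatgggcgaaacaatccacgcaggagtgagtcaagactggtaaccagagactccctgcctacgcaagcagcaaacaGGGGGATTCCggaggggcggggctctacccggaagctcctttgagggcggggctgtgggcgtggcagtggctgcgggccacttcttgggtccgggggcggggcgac
Nfkb2: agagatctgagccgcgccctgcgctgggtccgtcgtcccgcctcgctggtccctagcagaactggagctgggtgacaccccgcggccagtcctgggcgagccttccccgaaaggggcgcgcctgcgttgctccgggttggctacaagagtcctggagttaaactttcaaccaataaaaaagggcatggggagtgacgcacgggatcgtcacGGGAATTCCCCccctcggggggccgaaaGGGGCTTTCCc
Birc3: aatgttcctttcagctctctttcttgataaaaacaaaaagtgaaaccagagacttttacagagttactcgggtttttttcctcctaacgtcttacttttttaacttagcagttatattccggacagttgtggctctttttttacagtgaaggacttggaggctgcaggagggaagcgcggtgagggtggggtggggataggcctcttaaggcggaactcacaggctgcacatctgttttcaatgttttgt
The match begins 29 bases before the start in Nfkbia and 106 bases before it in Nfkbie, and Nfkb2 holds matches in separate runs that begin 39 and 11 bases before its start. A window was found for 27 of the 34 genes, with none for Cd83, Nfkb1, Relb, Cd86, Nfkbiz, Cd70 and Cd40. Of these 27, 10 held a match (37.0%), namely Nfkbia, Nfkbie, Nfkb2, Rel, Tnfaip3, Tnip1, Tank, Traf3, Icosl and Ltb, beside 8.23% of 27025 genes and 7.25% of 32851 windows of the same length. Such a match is a description of the letters, and binding was not measured.

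Among CD40-proximal adaptors, the ubiquitin ligase gene Birc3, whose product acts with TRAF proteins and limits NIK, measured 222, 134, 212 and 169 CPM in the aPIK3CD light zone, against 123, 97.3, 95.6 and 124 CPM in the dark zone (log2 fold change 0.74 ± 0.17 SE, adjusted p = 0.0152 by edgeR). WT light zone libraries had 193, 173, 155 and 165 CPM, against 129, 88.4, 34 and 98.5 CPM in WT dark zone libraries (log2 fold change 0.75 ± 0.18 SE, adjusted p = 0.029 by edgeR). The zones did not overlap in either genotype. Its call was lost when 3 of the 8 aPIK3CD libraries, or 4 of the 8 WT libraries, were left out in turn. Tank, which binds TRAF proteins, had 321, 205, 279.7 and 265 CPM in light zone and 183, 119, 196 and 158 CPM in dark zone libraries of aPIK3CD mice (log2 fold change 0.70 ± 0.16 SE, adjusted p = 0.0154 by edgeR), with no overlap. The call was lost without light zone replicate 1 or 3. In WT its log2 fold change was 0.37 (SE 0.18, adjusted p = 0.34 by edgeR), and the difference between the genotypes had an edgeR adjusted p = 1. The adaptors Traf1, Traf2 and Traf3, the ligase gene Birc2 and Map3k14, which encodes NIK, did not pass in either genotype.

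On the surface, Cd40 itself measured 318, 289.9, 303 and 242 CPM in the aPIK3CD light zone, against 176, 124, 193 and 199.7 CPM in the dark zone (log2 fold change 0.73 ± 0.15 SE, adjusted p = 0.00711 by edgeR). In WT it was 324, 319.6, 278 and 260.0 CPM in the light zone, against 168, 125, 34 and 155 CPM in the dark zone (log2 fold change 1.03 ± 0.16 SE, adjusted p = 0.00125 by edgeR). The receptor gene did not overlap between zones in either genotype. Cd70, which encodes the ligand of the costimulatory receptor CD27, had 18, 25.1, 16.8 and 19.8 CPM in light zone and 0.989, 1.64, 4.78 and 0.6 CPM in dark zone libraries of aPIK3CD mice (edgeR adjusted p = 0.00246). WT libraries gave 16.8, 6.96, 11.6 and 14.6 CPM in the light zone and 0, 0, 0 and 0.648 CPM in the dark zone (edgeR adjusted p = 0.00143). These are few counts, 122 in light zone and 12 in dark zone libraries of aPIK3CD mice, and 75 and 1 in those of WT mice. The pooled ratio of light zone to dark zone was 10.5 in aPIK3CD (95% exact interval 5.82 to 21.0) and 53.1 in WT (9.24 to 2123), which covers counting error only. Cd83 and Cd86 are described and not read as findings, since their proteins are in common use to sort these zones and the labels do not give the gates. Cd83 averaged 668 ± 139 CPM in light zone and 359 ± 62.7 CPM in dark zone libraries of aPIK3CD mice (SD, n = 4 each), and 626 ± 102 and 305 ± 101 CPM in those of WT mice (n = 4 and 3). Cd86 averaged 289 ± 31.6 and 210.0 ± 25 CPM in light and dark zone libraries of aPIK3CD mice, and 304 ± 45.2 and 189 ± 34.5 CPM in those of WT mice. The Cd86 call was lost in both genotypes when all 8 groups shared 1 fit. It was also lost when 6 of the 8 aPIK3CD libraries, or 3 of the 8 WT libraries, were left out in turn. The remaining surface genes, Icosl, Fas, Cd44, Slamf1, Icam1 and, where tested, Cd80, did not pass in the main edgeR fit, nor did Lta, Ltb and Tnf. Slamf1 passed as higher in aPIK3CD with the DESeq2 Wald test, and in WT with no filter on low counts and without dark zone replicate 1. Icam1 passed as higher in WT with no filter, with limma voom and without light zone replicate 4.

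Markers of other cells were detected and partly moved with the zones. The 12 T cell markers summed to 412 to 601 CPM in light zone and 276 to 381 CPM in dark zone libraries of aPIK3CD mice, and to 338 to 647 and 230 to 476 CPM in those of WT mice. Most of this was Lck, at mean levels of 401 and 303 CPM in aPIK3CD and 316 and 221 CPM in WT, and Cd3g averaged 32.8 and 4.75 CPM in aPIK3CD and 30.2 and 5.28 CPM in WT. Lck did not move with Cd3g across populations. In plasma cells Lck averaged 86.8 CPM in aPIK3CD and 75.4 CPM in WT, and Cd3g 82.3 and 88.3 CPM. The sums are therefore not a measure of T cell RNA alone. The 8 myeloid markers summed to 7.48 to 331 and 3.41 to 45.8 CPM in aPIK3CD, and to 34.3 to 246 and 0 to 19.2 CPM in WT, in light zone and dark zone libraries of each genotype. Naive B cell markers moved with the zones as well. The 6 of them summed to 1260 to 1430 CPM in light zone and 666 to 935 CPM in dark zone libraries of aPIK3CD mice. In WT mice they summed to 1210 to 1310 CPM in the light zone and 578 to 957 CPM in the dark zone. The part of all these markers in the results was not tested. In bulk samples such as these, fewer cells that express a gene and less RNA per cell cannot be told apart.

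**Figure D2:**
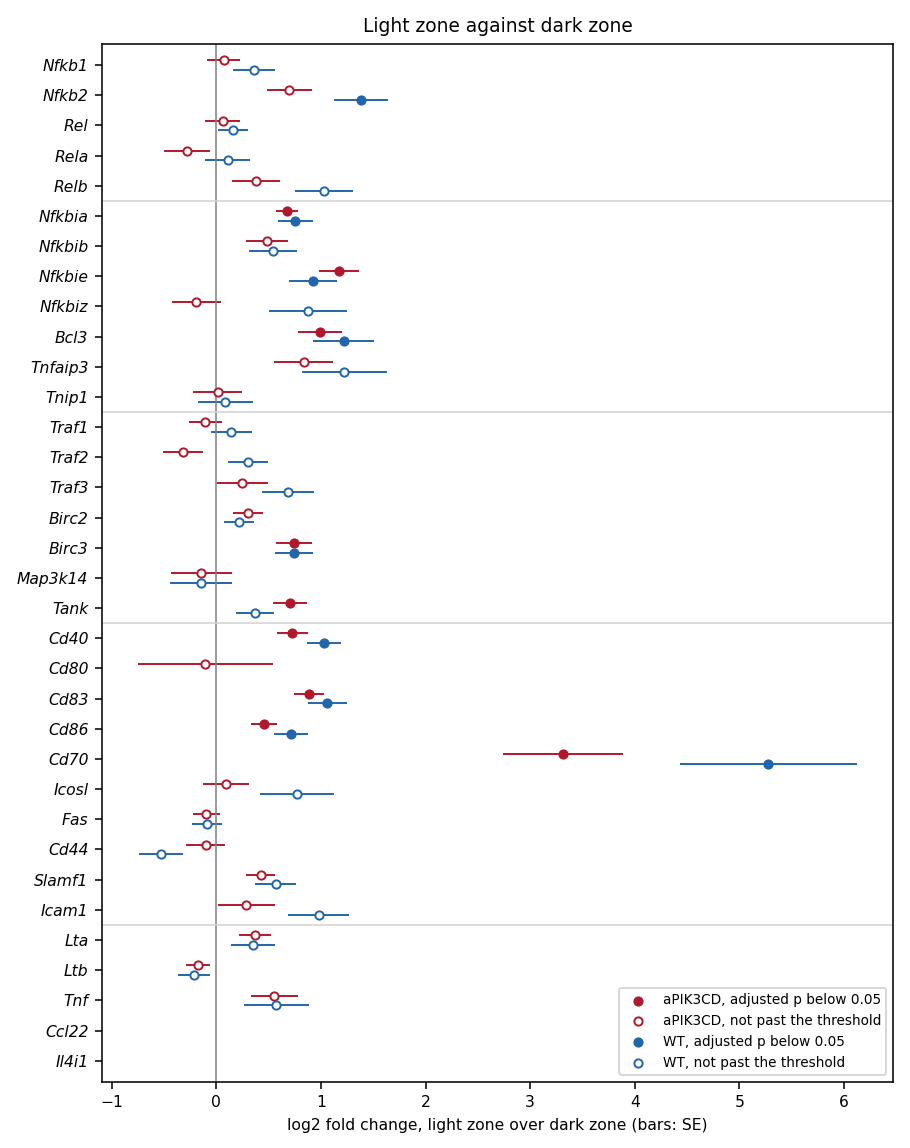
Log2 fold change of light zone over dark zone (x axis) for each gene (y axis) in aPIK3CD (red) and WT (blue), with bars for the SE and filled points for an edgeR adjusted p below 0.05; 4 libraries per group, and no point where a gene was not tested. The filled points all lie right of 0, and they sit mainly among the inhibitors and the surface genes. Of these, Cd83 and Cd86 are only described, since their proteins are in common use for sorting.

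Against naive B cells, 4 of the 5 subunit genes were lower in the light zone in both genotypes, while surface and secreted genes were called in both directions. In aPIK3CD mice 9 of the 34 genes rose and 10 fell (31 tested), where 42.6% of all genes tested passed (21.8% higher, 20.8% lower), and in WT mice 5 rose and 8 fell (31 tested), where 40% passed (19.8% higher, 20.2% lower). Traf1, Cd86, Cd70, Fas and Slamf1 were higher in both genotypes, and Nfkb1, Nfkb2, Rela, Relb, Bcl3, Birc3, Icosl and Ltb were lower in both. These shared genes are 55.6% of the higher and 80% of the lower genes in aPIK3CD, and 100% of those in WT. In aPIK3CD alone Nfkbia, Birc2, Lta and Tnf were called higher and Nfkbie and Traf2 lower. The Birc2 and Nfkbie calls were each lost when any of 4 of the 8 libraries was left out. Those of Nfkbia and Traf2 were each lost without 1 of the 8. The WT call of Nfkb2 was lost without light zone replicate 1 or naive replicate 2. The counts include Fas and Cd86, which are only described since their proteins are in common use for sorting. The median log2 fold change of the tested members was -0.20 in aPIK3CD and -0.23 in WT, beside -0.02 and -0.04 over all genes.

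Rel, which encodes c-Rel and is needed to maintain germinal centres in mice, was the subunit gene that did not pass in either genotype. Its values were 202, 235, 202 and 188 CPM in light zone and 214, 238, 259 and 246 CPM in naive libraries of aPIK3CD mice (log2 fold change -0.20 ± 0.11 SE, adjusted p = 0.154 by edgeR). WT mice had 248, 254, 259 and 300.5 CPM in the light zone and 291, 219, 263 and 301 CPM in naive cells (log2 fold change -0.01 ± 0.14 SE, adjusted p = 0.969 by edgeR). The populations overlapped in both genotypes. Rela, the main transactivating subunit of the canonical route, had 86.4, 89.2, 79.1 and 92.5 CPM in light zone and 164, 204, 182 and 222 CPM in naive libraries of aPIK3CD mice, with no overlap (log2 fold change -1.15 ± 0.14 SE, adjusted p = 4.23e-05 by edgeR). In WT it had 64.2, 77.2, 107 and 88.4 CPM in the light zone and 134, 243, 161 and 188 CPM in naive cells, also with no overlap (log2 fold change -1.10 ± 0.22 SE, adjusted p = 0.00121 by edgeR). Relb fell in both, with log2 fold changes of -1.16 in aPIK3CD and -0.80 in WT. The WT call of Relb was lost when any of 4 of the 8 libraries was left out. Icosl, the ligand through which B cells engage ICOS on follicular helper T cells, measured 46.1, 60.6, 82.2 and 59.3 CPM in light zone and 185, 233, 291 and 329 CPM in naive libraries of aPIK3CD mice (log2 fold change -2.05 ± 0.21 SE, adjusted p = 1.52e-05 by edgeR). It was at 46.2, 55.7, 53.9 and 44.7 CPM in the light zone and 99, 348, 161 and 155 CPM in naive cells of WT mice (log2 fold change -1.92 ± 0.32 SE, adjusted p = 0.000344 by edgeR). All light zone libraries lay below all naive ones, and WT naive libraries spread widely.

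Slamf1, a receptor of the SLAM family used in contacts between B and T cells, measured 382, 253, 298 and 259 CPM in light zone and 123, 138, 152 and 207 CPM in naive libraries of aPIK3CD mice (log2 fold change 0.94 ± 0.17 SE, adjusted p = 0.000937 by edgeR). In WT the light zone had 321, 222, 258 and 224 CPM and naive cells 165, 127, 181 and 148 CPM (log2 fold change 0.73 ± 0.17 SE, adjusted p = 0.003 by edgeR). Light zone libraries lay above naive ones in both genotypes. Cd70 was at 0 counts in every naive library of aPIK3CD mice, so its light zone level there was at least 72.0-fold higher, taking 3 counts over the naive group as the floor. Fas, which encodes a death receptor and is commonly used to sort germinal centre cells, averaged 300.0 ± 30.2 CPM in light zone and 24.5 ± 3.47 CPM in naive libraries of aPIK3CD mice, and 279 ± 32.6 and 25 ± 15.6 CPM in those of WT mice (SD, n = 4 each), and is only described. Of the cytokine genes, Tnf had 66.3, 53.6, 54.2 and 51.8 CPM in light zone and 23.8, 24.1, 33.9 and 26.4 CPM in naive libraries of aPIK3CD mice (log2 fold change 1.06 ± 0.23 SE, adjusted p = 0.00267 by edgeR), with no overlap. The WT difference was 0.55 on the log2 scale (SE 0.30, adjusted p = 0.162 by edgeR). Lta, a subunit of lymphotoxin, had a log2 fold change of 0.50 in aPIK3CD (edgeR adjusted p = 0.0379), a call lost when any of 7 of the 8 libraries was left out. Ltb, its membrane-bound partner, fell in both, with log2 fold changes of -0.61 in aPIK3CD and -0.45 in WT. The WT call of Ltb was lost when any of 5 of the 8 libraries was left out. Markers of other cells also differed between these populations. The 5 NK cell markers summed to 15.1 to 105 CPM in light zone and 200 to 404 CPM in naive libraries of aPIK3CD mice, and to 3.8 to 168 and 233 to 419 CPM in those of WT mice, with no marker at 0 throughout a group. The T cell markers summed to 412 to 601 and 136 to 282 CPM in light zone and naive libraries of aPIK3CD mice, and to 338 to 647 and 194 to 246 CPM in those of WT mice, with Il21 at 0 in both aPIK3CD groups and in WT naive cells and Icos at 0 in WT naive cells. Most of this was again Lck, at mean levels of 401 and 150 CPM in aPIK3CD and 316 and 166 CPM in WT. Cd3g averaged 32.8 and 17.3 CPM in aPIK3CD and 30.2 and 8.31 CPM in WT. The myeloid markers summed to 7.48 to 331 and 5.15 to 49.4 CPM in aPIK3CD, and to 34.3 to 246 and 5.31 to 46.9 CPM in WT. T cells and NK cells also express Lta and Tnf, and the part of these cells in the result was not tested.

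In plasma cells most of the 34 genes were below their level in naive B cells, while Nfkbia was above it. In aPIK3CD mice 21 fell and 5 rose (30 tested), where 52.8% of all genes tested passed (26.2% lower, 26.5% higher), and in WT mice 19 fell and 3 rose (30 tested), where 49.6% passed (24.2% lower, 25.4% higher). The median log2 fold change of the tested members was -1.21 in aPIK3CD and -1.12 in WT, beside -0.08 and -0.09 over all genes. All 19 genes that fell in WT also fell in aPIK3CD, where they made up 90.5% of the lower genes, and all 5 subunit genes were among them. Nfkbia, Fas and Cd44 rose in both genotypes. Birc2 and Tank were called higher, and Tnip1 and Traf3 lower, in aPIK3CD alone.

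Rel fell further than the other 4 subunit genes, whose log2 fold changes lay between -1.22 (Nfkb2 in aPIK3CD) and -0.63 (Rela in WT). It measured 12.4, 17.2, 18.7 and 10.2 CPM in plasma cells and 214, 238, 259 and 246 CPM in naive cells of aPIK3CD mice (log2 fold change -4.03 ± 0.21 SE, adjusted p = 1.38e-08 by edgeR), and 24.9, 31.2, 11.9 and 23 and 291, 219, 263 and 301 CPM in those of WT mice (log2 fold change -3.56 ± 0.25 SE, adjusted p = 3.23e-08 by edgeR). Rela fell by much less, to 114, 114, 166 and 83.3 CPM in plasma cells, against 164, 204, 182 and 222 CPM in naive cells of aPIK3CD mice (log2 fold change -0.68 ± 0.20 SE, adjusted p = 0.0129 by edgeR). In WT its log2 fold change was -0.63 (SE 0.21, adjusted p = 0.0242 by edgeR), a call that was lost without WT naive replicate 2 or without WT plasma cell replicate 3. Rel libraries were far apart between the populations, whereas 1 aPIK3CD plasma library reached the naive range of Rela. Per kilobase of exon, the mean Rel level was 1.96 CPM in plasma cells and 32.0 CPM in naive cells of aPIK3CD mice, while Rela stood at 38.7 and 62.8 CPM per kilobase.

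Nfkbia showed the opposite course. Plasma cell libraries had 1353, 1254, 1264 and 1289 CPM, against 379, 391, 382 and 374 CPM in naive libraries of aPIK3CD mice (log2 fold change 1.77 ± 0.07 SE, adjusted p = 1.36e-09 by edgeR). WT plasma cells had 1514, 1419, 1333 and 1352 CPM and WT naive cells 476, 310.4, 369.6 and 401 CPM (log2 fold change 1.90 ± 0.14 SE, adjusted p = 5.11e-08 by edgeR). No plasma cell library came near a naive one. Deposited counts reached at most 1.96 per exonic base (Igkc) among genes of at least 1000 counts. Nfkbia reached at most 0.677 per base, with 1090 counts in aPIK3CD naive replicate 4. Its highest count in a plasma cell library was 870, in aPIK3CD replicate 1. Whether counts were limited per base was not tested. Its relatives did not follow: Nfkbie averaged 82.2 ± 27.9 CPM in plasma cells and 215 ± 14.7 CPM in naive cells of aPIK3CD mice (SD, n = 4 each; log2 fold change -1.37, edgeR adjusted p = 0.000166), and Bcl3 50.3 ± 34 and 198 ± 18.7 CPM (log2 fold change -1.97, edgeR adjusted p = 0.000353). Nfkbib, Nfkbiz and Tnfaip3 did not pass in either genotype.

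Cd40, Slamf1, Lta, Tnf and Ltb fell in plasma cells of both genotypes. Cd40 measured 63.8, 36.2, 44.9 and 25.5 CPM in plasma cells and 339, 278, 363 and 312 CPM in naive cells of aPIK3CD mice (log2 fold change -2.89 ± 0.22 SE, adjusted p = 4.35e-07 by edgeR), and 18.1, 26, 37.5 and 43.7 and 357, 285, 335 and 305 CPM in those of WT mice (log2 fold change -3.29 ± 0.24 SE, adjusted p = 3.61e-08 by edgeR). The groups lay far apart. Slamf1 averaged 5.75 CPM in plasma cells and 155 CPM in naive cells of aPIK3CD mice, and 7.94 and 155 CPM in those of WT mice. For Lta, plasma cell libraries had 0, 0, 3.74 and 5.1 CPM in aPIK3CD and 4.53, 7.8, 13.6 and 2.3 CPM in WT, against 115, 90.5, 165 and 105 and 124, 114, 124 and 112 CPM in naive cells (log2 fold change -5.70, edgeR adjusted p = 1.69e-06 in aPIK3CD, and -3.93, adjusted p = 3.16e-07 in WT). Tnf had 4 counts over the plasma cell libraries of aPIK3CD and 4 over those of WT. Ltb was lower but present, at 99.4 ± 38.7 CPM in plasma cells and 475 ± 12.4 CPM in naive cells of aPIK3CD mice (SD, n = 4 each; log2 fold change -2.25), and at 111 ± 25.2 and 454 ± 86.7 CPM in those of WT mice (log2 fold change -1.99).

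Cd44, which encodes a receptor for hyaluronan and for cell adhesion, rose to 518, 488, 419 and 452 CPM in plasma cells, against 102, 80.4, 108 and 105 CPM in naive cells of aPIK3CD mice (log2 fold change 2.26 ± 0.13 SE, adjusted p = 2.83e-08 by edgeR). In WT it was 603, 681, 535 and 467 CPM in plasma cells and 99.5, 117, 97.5 and 109 CPM in naive cells (log2 fold change 2.47 ± 0.16 SE, adjusted p = 1.06e-08 by edgeR). Every plasma cell library lay well above every naive one. T cells also express Cd44. The 12 T cell markers summed to 323 to 492 CPM in plasma cells and 136 to 282 CPM in naive cells of aPIK3CD mice, and to 249 to 813 and 194 to 246 CPM in those of WT mice, with Cd3g at a mean of 82.3 and 17.3 CPM in aPIK3CD and 88.3 and 8.31 CPM in WT. The myeloid markers summed to 9.35 to 497 CPM in plasma cells and 5.15 to 49.4 CPM in naive cells of aPIK3CD mice, and to 7.8 to 365 and 5.31 to 46.9 CPM in those of WT mice. The 5 NK cell markers summed to 34.2 to 273 CPM in plasma cells and 200 to 404 CPM in naive cells of aPIK3CD mice, and to 41.4 to 92.9 and 233 to 419 CPM in those of WT mice. Their part in the result was not tested.

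**Figure D3:**
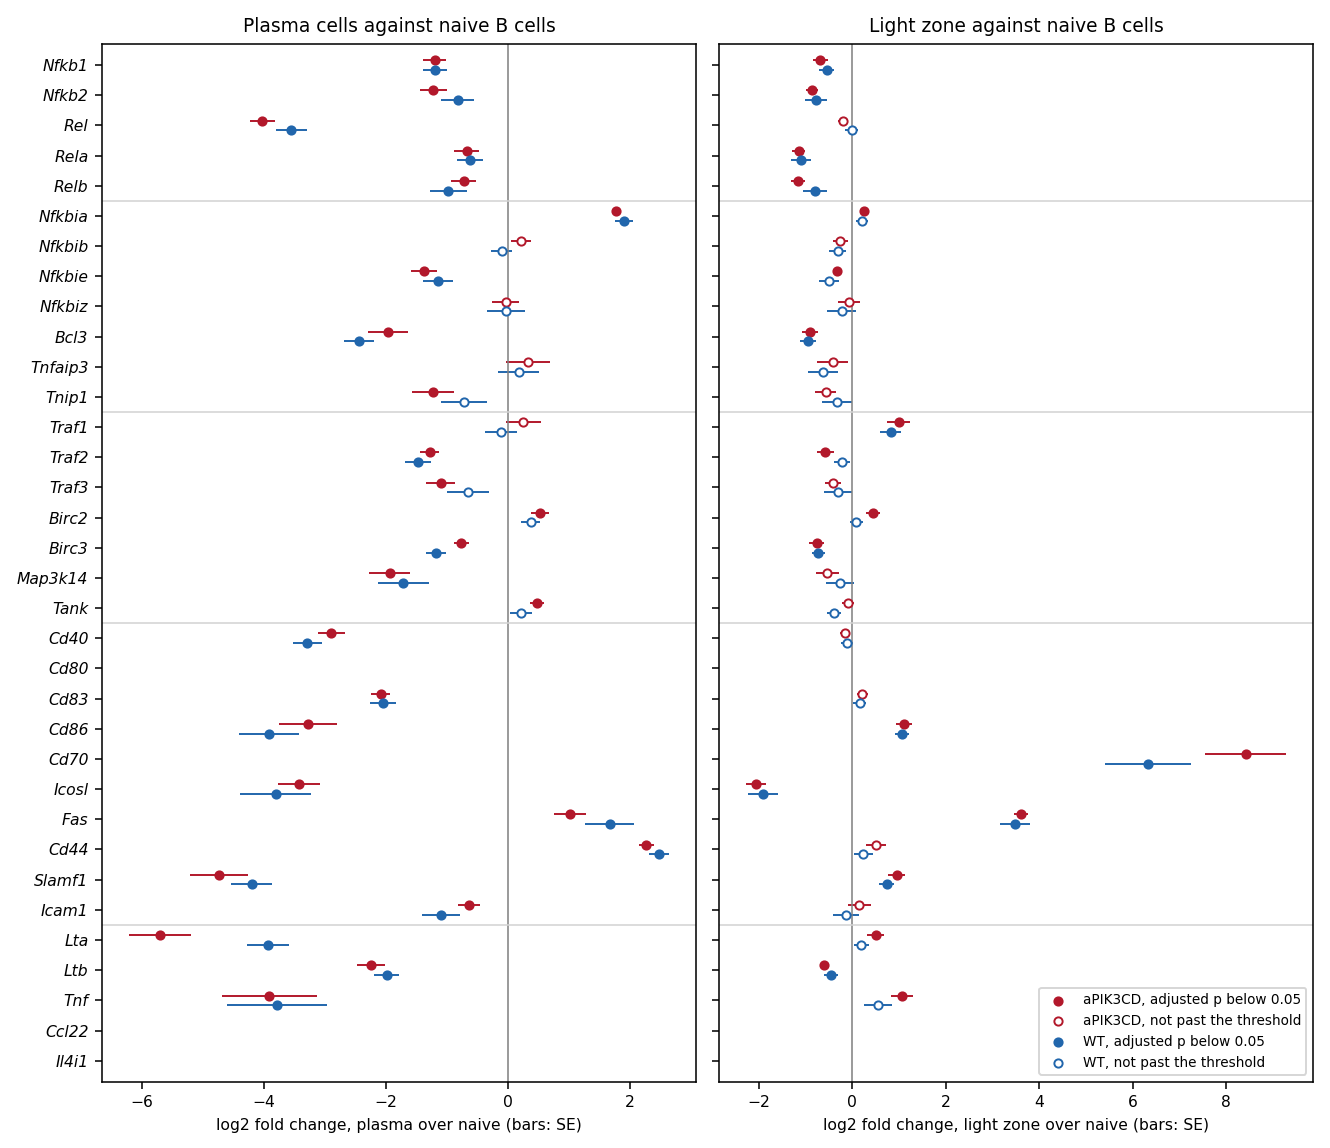
Log2 fold change (x axis) of plasma cells over naive B cells (left panel) and of light zone over naive B cells (right panel) for each gene (y axis) in aPIK3CD (red) and WT (blue), with bars for the SE and filled points for an edgeR adjusted p below 0.05; 4 libraries per group, and no point where a gene was not tested. Rel lies near -4 in plasma cells and near 0 in the light zone, and Nfkbia lies near 2 in plasma cells.

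**Figure D4:**
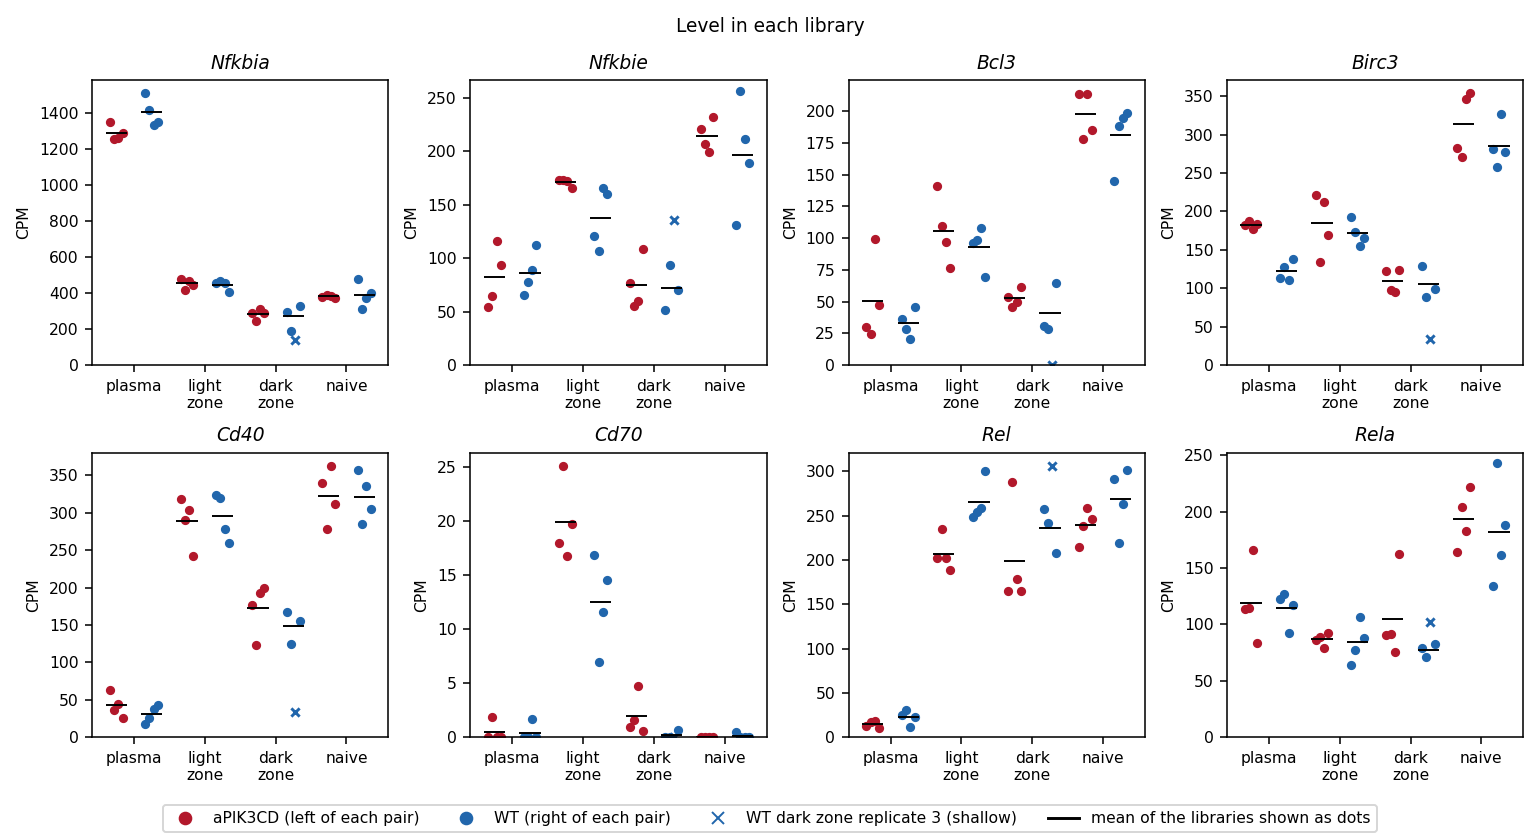
Level in each library, in CPM on a linear axis from 0, of 8 genes in the 4 populations, aPIK3CD (red) left of WT (blue), with lines for the mean and a cross for the shallow WT dark zone library, which the mean leaves out. Nfkbie, Bcl3, Birc3 and Cd40 are higher in the light zone than in the dark zone, Cd70 is close to 0 outside the light zone, and Rel is low in plasma cells.

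Between genotypes, 1 of the 34 genes passed the test in any population. In plasma cells 1 gene, Birc3, was called higher in aPIK3CD (23 tested), while 3.2% of all genes tested passed, 1.98% higher and 1.22% lower. There 3 of the 23 tested members had an unadjusted edgeR p under 0.05, 1 higher and 2 lower, beside 23.3% of all genes in either direction. From a single call nothing is read about the members as a group. In the light zone 0 of the 34 genes passed in edgeR, DESeq2 or limma voom (31 tested, 2 with an unadjusted edgeR p under 0.05, as had 6.63% of all genes), beside 0% of all genes tested in edgeR. In the dark zone 0 passed in any of these (30 tested, 5 with an unadjusted edgeR p under 0.05, all higher, as had 7.5% of all genes in either direction), beside 0.021% of all genes (0.0105% higher, 0.0105% lower). In naive B cells 0 passed in any of them (30 tested, 0 with an unadjusted edgeR p under 0.05, as had 3.06% of all genes), beside 0%.

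Birc3 measured 182, 187, 178 and 184 CPM in aPIK3CD plasma cells, against 113, 127, 111 and 138 CPM in WT plasma cells (log2 fold change 0.55 ± 0.14 SE, adjusted p = 0.0481 by edgeR). Every aPIK3CD library lay above every WT library. The call lies at the threshold: it was lost when any library other than WT replicate 4 was left out, with the log2 fold change between 0.43 and 0.70 over all alternatives and the adjusted p between 0.04 and 0.298. Total counts were 652722 to 788999 in aPIK3CD and 473149 to 704361 in WT plasma cells, and with the log2 total as a covariate the call was lost as well. In the other populations the log2 fold change of Birc3 was 0.09 in light zone, 0.10 in dark zone and 0.13 in naive cells. Fas had the next smallest p in plasma cells, at 49.8, 55.3, 35.5 and 56.1 CPM in aPIK3CD and 86.1, 44.2, 95.5 and 80.5 CPM in WT (log2 fold change -0.68 ± 0.26 SE, adjusted p = 0.145 by edgeR). The genotypes overlapped through WT replicate 2.

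In the light zone, the members with an unadjusted p under 0.05 were Rel and Lta. Rel had 202, 235, 202 and 188 CPM in aPIK3CD and 248, 254, 259 and 300.5 CPM in WT (log2 fold change -0.37 ± 0.12 SE, adjusted p = 0.692 by edgeR). Lta had 179, 178, 158 and 156 CPM in aPIK3CD and 147, 150.0, 124 and 114 CPM in WT (log2 fold change 0.31 ± 0.14 SE, adjusted p = 0.746 by edgeR). For both genes the libraries of the genotypes did not overlap, but the differences did not pass. The share of all genes without overlap between genotypes was not counted, here or in the other populations. The lack of overlap is therefore not read as a genotype difference. Cd40 and Nfkbia had log2 fold changes of -0.05 (SE 0.12) and 0.01 (SE 0.10).

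In the dark zone the tested members leaned to higher values in aPIK3CD, with 24 of 30 log2 fold changes above 0 and a median of 0.25, beside 0.01 over all genes. Without the shallow WT library the median was 0.22 and 23 of 30 were above 0. It was 0.16 with the log2 total count as a covariate and 0.18 with aPIK3CD replicate 1 counted as WT. No member passed. Icam1, the ligand of the integrin LFA on T cells, measured 113, 81.8, 80.5 and 167 CPM in aPIK3CD and 70.3, 28.7, 68 and 70 CPM in WT (log2 fold change 0.97 ± 0.29 SE, adjusted p = 0.398 by edgeR). Traf2, a TRAF adaptor that recruits Birc2 and Birc3 products to CD40, had 158, 125, 128 and 171 CPM in aPIK3CD and 107, 81.8, 34 and 114 CPM in WT (log2 fold change 0.56 ± 0.19 SE, adjusted p = 0.473 by edgeR). All aPIK3CD libraries lay above all WT libraries for both genes, which is likewise not read as a genotype difference. Icam1 passed when no filter on low counts was used. Opposite-strand genes cover 11.7% of its exonic bases.

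In naive B cells the smallest p among the members belonged to Traf2, at 186, 160.4, 188 and 169 CPM in aPIK3CD and 130.4, 170.4, 118 and 149.7 CPM in WT (log2 fold change 0.30 ± 0.15 SE, adjusted p = 1 by edgeR). Rel followed, at 214, 238, 259 and 246 CPM in aPIK3CD and 291, 219, 263 and 301 CPM in WT (log2 fold change -0.16 ± 0.12 SE, adjusted p = 1 by edgeR). Both genes overlapped between the genotypes.

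Whether the genotype difference itself varied was tested directly. For the zones 0 members passed (2 with an unadjusted p under 0.05, Nfkbiz and Traf2, as had 3.29% of all genes; 0 with the DESeq2 Wald test), where 0.00955% of all genes passed in edgeR. Among the 4 populations 0 members passed (1 with an unadjusted p under 0.05, Nfkbiz, as had 7.07% of all genes; 0 with the DESeq2 likelihood ratio test), where 0.0256% of all genes passed.

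**Figure D5:**
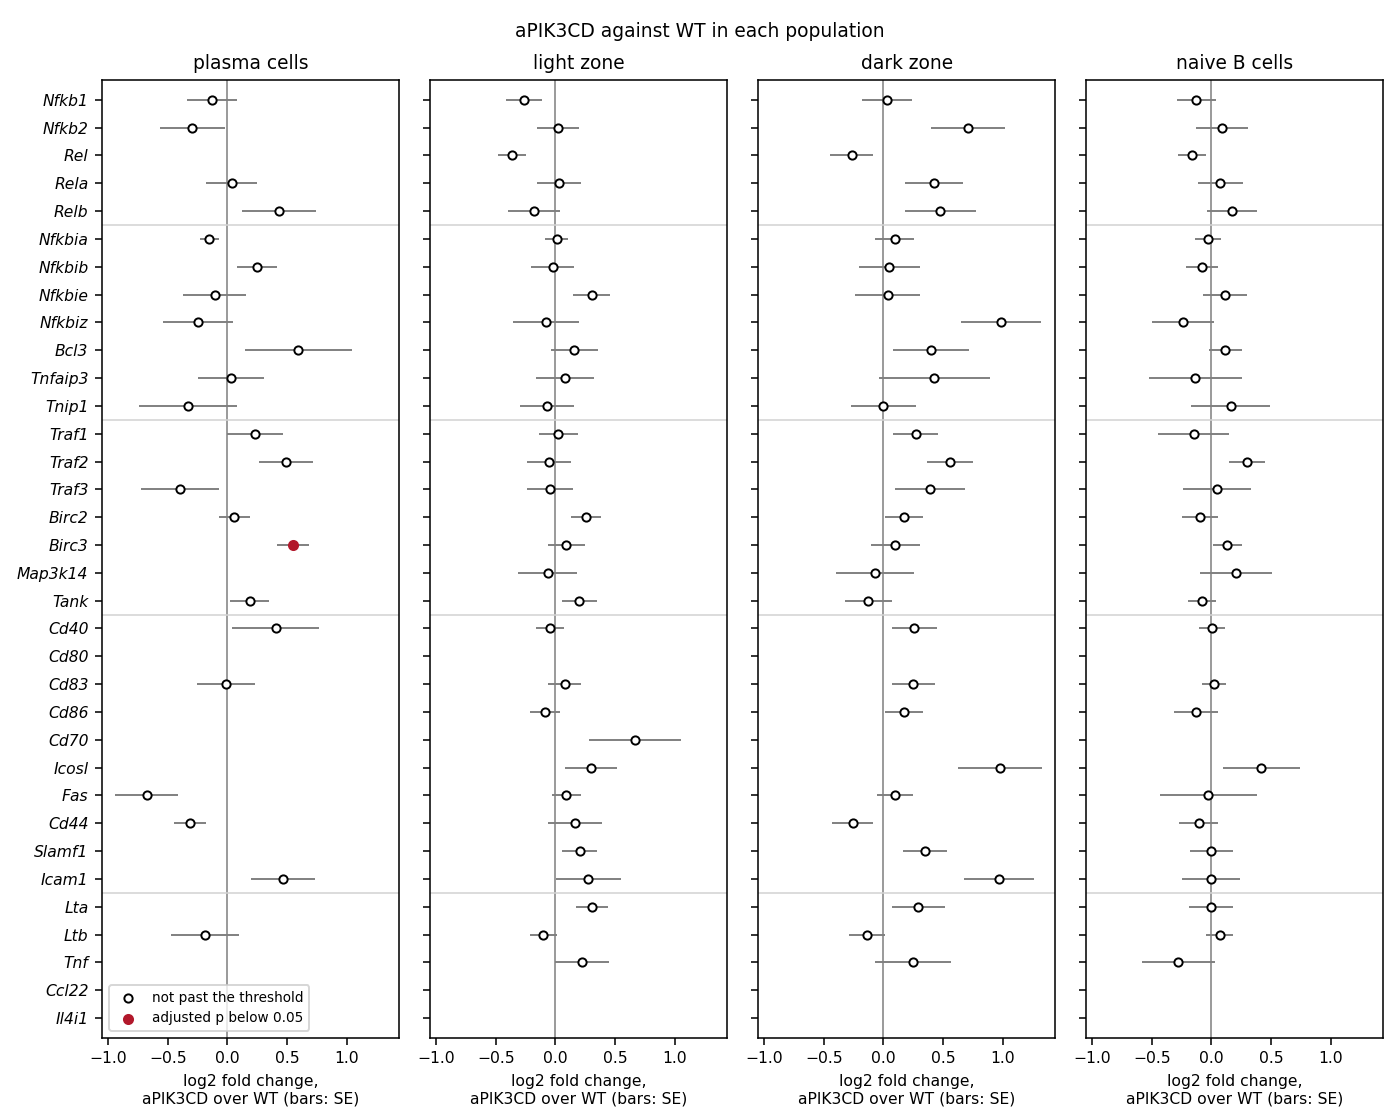
Log2 fold change of aPIK3CD over WT (x axis) for each gene (y axis) in plasma cells, light zone, dark zone and naive B cells, with bars for the SE and a filled point for an edgeR adjusted p below 0.05; 4 libraries per group, and no point where a gene was not tested. Birc3 in plasma cells is the only filled point, and in the dark zone 24 of 30 points lie above 0, a lean that was not tested.

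Ccl22, Il4i1 and Cd80 were scarce. Ccl22, a chemokine that attracts T cells and dendritic cells, was detected in 1 aPIK3CD light zone library (replicate 1, 6.48 CPM) and in 2 WT light zone libraries (replicate 1, 0.624 CPM, and replicate 2, 10.8 CPM), and had 0 counts in all other libraries. Il4i1, a secreted amino acid oxidase, had at most 5 counts over any group, and other genes share 86.3% of its exonic bases. Cd80, a ligand of CD28, had group means between 0.467 and 5.85 CPM and was tested between the aPIK3CD zones and for both interactions, without passing. Nfkbiz, an inducible nuclear IkappaB protein, had group means between 26.4 and 57.2 CPM, and Map3k14 means between 14.1 and 56.6 CPM. Tnip1, whose product binds that of Tnfaip3, had means between 33.7 and 79.2 CPM, and the adaptor gene Traf3 between 46.3 and 101 CPM. Higher means were those of Traf1, between 70.5 and 153 CPM, of Nfkbib, which encodes IkappaB-beta, between 75 and 145 CPM, of Nfkb1, the precursor of the canonical p50 subunit, between 85.9 and 217 CPM, and of Birc2, between 173 and 253 CPM.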

How the data were processed

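Raw whole-number counts of 32 libraries were deposited by the authors, 1 column each. Per the labels, 500 sorted cells went into a SMART-Seq v4 library, which does not mark strand. Per the submitters' processing notes, STAR 2.4.2a, HTSeq and Picard were used, with the genome build of the counts not given in the sources. Genes without a name (3433, 0.173% of counts) stayed in the totals.

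CPM are counts divided by TMM-scaled totals. Each pair of groups was fitted with edgeR 4.0.16 in R 4.3.3 (filterByExpr, minimum count 10, two-sided quasi-likelihood F test), and interactions over all groups concerned. The SE is the absolute log2 fold change over the square root of F. Calls are at an adjusted p below 0.05 (Benjamini-Hochberg, all genes tested). Alternatives were DESeq2 1.42.0 (size factors, Wald or likelihood ratio test), limma 3.58.1 voom, no filter, removal of antigen receptor genes, a single fit, a replicate block, a depth covariate, regrouping of aPIK3CD replicate 1, and leaving out each library. The fit was tested on simulated data.

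The members and lists were chosen with earlier results of these data known. Values in every library are given for members called between genotypes, the 2 of smallest p per genotype comparison, and up to 4 per class in comparisons of populations. Replicates of a group differed by more than counting noise in all 48 pairs.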

Additional observations from a re-analysis of the deposited data

Results flagged for a closer look

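A library was taken as far from the others by Dixon's 95% criterion for its group of 4, the gap to the nearest value as a share of the range. This held for 11 of 230 combinations of gene and group (4.78%), and chance flags about 1 in 20. In the shallow WT dark zone replicate 3, Nfkb1 was at 0 CPM (other libraries 119 to 122 CPM), Relb at 0 CPM (36.3 to 41.2 CPM) and Tnfaip3 at 102.1 CPM (11.4 to 23.3 CPM). Cd83 was at 873.7 CPM in aPIK3CD light zone replicate 1 (others 569 to 616 CPM), as was Tnf at 66.27 CPM (51.8 to 54.2 CPM), and Nfkbie was lowest in replicate 4 at 165.8 CPM (173 to 174 CPM). Rel was at 287.9 CPM in aPIK3CD dark zone replicate 2 (165 to 179 CPM), and Slamf1 at 249.8 CPM in replicate 3 (209.9 to 216 CPM). Nfkbia was at 403.5 CPM in WT light zone replicate 4 (457 to 466 CPM). In the WT dark zone, Slamf1 was at 249.3 CPM in replicate 1 (129.7 to 148 CPM) and Icam1 at 28.74 CPM in replicate 2 (68.0 to 70.3 CPM).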

How the results depend on the processing

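Among genes called, or of smallest p between genotypes, no fold change reversed under any alternative run. In plasma cells between genotypes the count of 1 (Birc3) became 0 with no filter, in the single fit, with the replicate block, with the depth covariate and with aPIK3CD replicate 1 counted as WT, and ranged from 0 to 1 over left-out libraries. In the dark zone between genotypes the count of 0 became 1 (Icam1) with no filter and with the replicate block. For light zone against dark zone the aPIK3CD count of 9 became 4 with aPIK3CD replicate 1 counted as WT, and the WT count of 9 became 5 with the DESeq2 Wald test, with 6 to 9 and 5 to 12 over left-out libraries. The calls that held in every alternative run were Nfkbia, Nfkbie, Cd83 and Cd70 in aPIK3CD, and Nfkb2, Cd40 and Cd83 in WT. Against naive B cells, left-out libraries gave 15 to 18 light zone calls in aPIK3CD and 11 to 14 in WT, and 26 and 21 to 23 plasma cell calls. Other counts kept within 1.5 times. The replicate numbers did not pair the samples: correlations of same-numbered deviations were between -0.119 and 0.278, and in no comparison were all over 0.1. Beside the changes named, the replicate block changed no count by more than 1.5 times, although for light zone against dark zone Nfkb2 and Slamf1 gained calls in aPIK3CD and Nfkbie lost one in WT. Depth limits the scarce genes, Ccl22, Il4i1, Cd80 and Cd70, and every gene in WT dark zone replicate 3.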

Other observations

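Other genes of the pathway were counted from lists of 33 upstream components and 22 further targets. Against naive B cells, 12 of the 33 upstream genes fell and 2 rose in the light zone of aPIK3CD mice (29 tested), where 20.8% of all genes tested fell and 21.8% rose. In WT 10 fell and 2 rose (29 tested), where 20.2% of all genes fell and 19.8% rose. In aPIK3CD the smallest p belonged to Prkcb, the kinase C isoform of B cell receptor signalling (log2 fold change -1.22), Ikbkb, which encodes a catalytic IkappaB kinase (-1.14), Malt1, a paracaspase (-1.09), and Ikbkg, the regulatory kinase subunit (-1.19). In WT they were Ikbkb (-1.24), Prkcb (-0.88), the kinase gene Tbk1 (-1.26) and Tnfrsf13b, which encodes the receptor TACI (-0.95). In plasma cells 13 of the 33 fell and 3 rose in aPIK3CD (30 tested), and 10 fell and 3 rose in WT (29 tested). Of all genes, 26.2% fell and 26.5% rose in aPIK3CD, and 24.2% fell and 25.4% rose in WT. There Prkcb had log2 fold changes of -3.05 in aPIK3CD and -3.12 in WT, Ikbkb -2.05 and -2.04, and Tnfrsf13b rose by 1.28 in aPIK3CD.

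Between the zones, the upstream list had few calls, with 1 lower gene in aPIK3CD (Traf5, an adaptor, -0.70) and 2 higher genes in WT (Nfkbid, a nuclear IkappaB protein, 1.47, and the kinase gene Ikbke, 1.85). Of the 22 targets, 4 rose and 1 fell in the light zone of aPIK3CD mice, and 4 rose and none fell in WT (17 tested in each). Of all genes tested, 3.13% rose and 2.91% fell in aPIK3CD, and 1.3% rose and 1.26% fell in WT. Ebi3, a cytokine subunit, and Myc, a growth regulator, rose in both genotypes (log2 fold changes 3.52 and 1.55 in aPIK3CD, 2.18 and 1.85 in WT). Ccr7, a chemokine receptor, and Bcl2a1d, a survival gene of a family with near-identical copies, rose by 1.60 and 1.69 in aPIK3CD, and the transcription factor genes Irf4 and Junb rose by 2.95 and 0.93 in WT. The fallen gene was Gadd45b, a stress response gene (-0.40). Between genotypes 1 target passed, Pim1, a survival kinase, which was lower in aPIK3CD plasma cells (log2 fold change -0.99, SE 0.20, edgeR adjusted p = 0.0256). There 3.2% of all genes passed.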
